A study of Sus scrofa with 5 samples.

Results

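The cells described here are vascular smooth muscle cells of pig skin and pig skin grafts. A cell was taken when it had at least 500 detected genes, at least 2 unique molecular identifiers (UMIs, counts of single captured RNA molecules) of MYH11, at least 2 UMIs of RERGL and ITIH4 together, and at most 1 UMI of VWF and PTPRC together. The gate found 2785 of the 28654 cells with at least 500 genes in the series. They were 896 cells of the inhibitor graft and 644 of the untreated graft at day 7, 573 and 471 cells of the corresponding grafts at day 90, and 201 cells of unwounded skin. The working name of the cells is arterial-type smooth muscle, and they were chosen by their measured UMIs of the gate genes, in the same RNA counts that are described here.

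Smooth muscle cells wrap arteries and arterioles and set the width of the vessel by contracting actin filaments against smooth muscle myosin, whose heavy chain is MYH11. Capillaries carry pericytes instead, which share RGS5 and PDGFRB with smooth muscle but hold little of the contractile apparatus. Notch signalling through NOTCH3 maintains arterial smooth muscle, and after injury these cells are known to lower contractile genes and to raise genes of extracellular matrix.

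Pig wounds through the whole skin received split-thickness grafts, made of epidermis and a layer of dermis. The grafts either had no drug or lay under a hydrogel that released a FAK inhibitor (FAK is the kinase that PTK2 encodes and that signals from integrins), with a new dressing every other day, and were taken at day 7 or day 90. Skin without a wound was taken as well. Each of the 5 groups is 1 library of cells captured with 10x Genomics chemistry from enzymatically digested tissue. The number, age, breed and sex of the animals behind a library are unknown here, so a difference between libraries cannot be told apart from a difference between animals or between captures. There is no replicate, no p-value is given, and intervals are 95% intervals for counting error only.

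The libraries held between 1586 and 9386 cells with at least 500 genes, and their medians ranged from 5669 to 9877 UMIs per cell. The gated cells had medians of 8264.5 and 7026.5 UMIs at day 7 (inhibitor, untreated), 5915 and 5768 at day 90, and 6376 in unwounded skin. Their median share of mitochondrial UMIs lay between 2.73% and 4.74%. Of all barcode sequences, 320 occurred in more than 1 library, with 152 shared between the inhibitor graft at day 90 and unwounded skin and 133 between the untreated graft at day 90 and unwounded skin. Among gated cells 20 carried a barcode found in another library, and 2 barcodes were gated in both libraries that held them. Doublets were not removed, and the top-scoring cells of a doublet caller, at 0.8% per 1000 cells, were 57 and 38 of the gated cells at day 7 (inhibitor, untreated), 7 and 19 at day 90, and 1 in unwounded skin.

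The gated cells were 9.55% of the cells in the inhibitor graft at day 7 (exact binomial interval 8.96 to 10.2%) and 7.90% in the untreated graft (7.33 to 8.51%). At day 90 they were 15.0% in the inhibitor graft (13.8 to 16.1%) and 8.25% in the untreated graft (7.55 to 9.0%), and in unwounded skin they were 12.7% (11.1 to 14.4%). When every cell was thinned to 4000 UMIs the shares were 9.64%, 7.81%, 13.5%, 6.18% and 12.4% in the same order. The inhibitor graft at day 90 had the highest share and the untreated graft the lower share at both days. Gated cells with a RERGL UMI were 3.49% of all cells in the inhibitor graft and 3.46% in the untreated graft at day 7. At day 90 they were 12.5% and 5.05%.

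The gate was carried by different genes at different times. RERGL, a member of the RAS-like GTPase family, had at least 1 UMI in 36.6% and 43.8% of the gated cells of the inhibitor and untreated grafts at day 7, in 83.2% and 61.1% at day 90, and in 89.1% in unwounded skin. ITIH4, an inter-alpha-trypsin inhibitor heavy chain known as a plasma protein of the liver, was present in 91.5% to 97.9% of the gated cells in each library. Most gated cells at day 7 therefore entered through ITIH4, and 568 of 896 and 362 of 644 had no RERGL UMI. With every cell thinned to 4000 UMIs, RERGL was found in 24.1% and 30.6% of gated cells at day 7, in 74.6% and 46.3% at day 90 and in 79.9% in unwounded skin. Immune cells (at least 2 UMIs of PTPRC), which should lack RERGL, had it in 1.17% to 5.88% of cells without thinning, at medians of 3118 to 8485 UMIs per cell, and in 0.270% to 3.57% after thinning. RERGL is a gate gene, so a share above that level in the gated cells follows in part from the gate and is no evidence of expression.

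**Figure D1:**
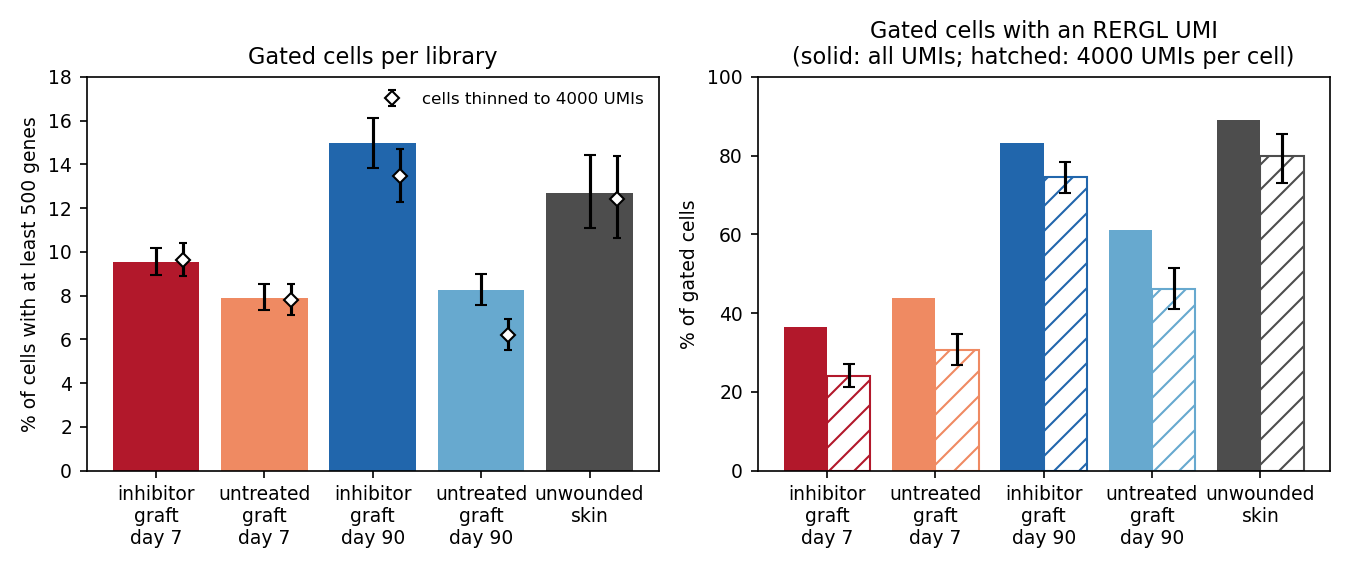
Share of gated cells among all cells with at least 500 genes (left) and share of gated cells with at least 1 RERGL UMI (right), both in percent, for the 5 libraries. Error bars are exact 95% binomial intervals, white diamonds and hatched bars are cells thinned to 4000 UMIs. RERGL is in 36.6% of gated cells of the inhibitor graft at day 7 and in 89.1% in unwounded skin.

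Just inside the thresholds, 82 and 48 gated cells at day 7 (inhibitor, untreated), 21 and 22 at day 90 and 11 in unwounded skin had exactly 2 UMIs of RERGL and ITIH4. Just outside, with 1 such UMI and all other conditions met, lay 122, 67, 17, 11 and 10 cells in the same order. For MYH11, 118, 83, 62, 71 and 14 gated cells had exactly 2 UMIs, and 169, 104, 87, 91 and 26 cells lay outside with 1.

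The label was set against its 5 markers, levels being given as CPM, UMIs summed over the gated cells of a library per 1000000 of their UMIs. MYH11 stood at 1117 CPM in the inhibitor graft and 1555 CPM in the untreated graft at day 7, 1795 and 1388 CPM in the corresponding grafts at day 90, and 2576 CPM in unwounded skin. RERGL stood at 75.5 CPM in the inhibitor graft and 111 CPM in the untreated graft at day 7, 482 and 255 CPM in the corresponding grafts at day 90, and 613 CPM in unwounded skin. Both stood lowest in the inhibitor graft at day 7 and highest in unwounded skin. ADIRF, an adipogenesis regulatory factor, had the same extremes, with 1472 CPM in the inhibitor graft and 1867 CPM in the untreated graft at day 7, 2673 and 1782 CPM in the corresponding grafts at day 90, and 4733 CPM in unwounded skin. ITIH4 stood between 2151 and 2897 CPM and had no such order. ACTG2, the gamma smooth muscle actin typical of gut and other visceral muscle, ran the other way, with 1333 CPM in the inhibitor graft and 1228 CPM in the untreated graft at day 7, 344 and 402 CPM in the corresponding grafts at day 90, and 294 CPM in unwounded skin. The markers thus did not move as 1 set. ELN, the elastin gene of elastic arteries, had only 0.206 to 13.0 CPM. The cells are called gated smooth muscle cells below.

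The general contractile genes were high in each library. ACTA2, the smooth muscle actin, lay between 7939 and 8826 CPM, and TAGLN, an actin-binding protein, between 8761 and 10448 CPM. RGS5, which smooth muscle shares with pericytes, lay between 2760.2 and 3590.3 CPM. Markers of other cells stood at levels that differed between lists and between libraries. VWF, which the gate limited, lay between 1.81 and 3.13 CPM, and PECAM1, an endothelial adhesion molecule, between 7.21 and 38.5 CPM. The 13 immune markers measured summed to 72.2, 82.0, 23.5, 36.8 and 15.1 CPM in the inhibitor and untreated grafts at day 7, the same grafts at day 90 and unwounded skin, and 10 of them, PTPRC among these, were at 0 in unwounded skin. The 14 keratinocyte and myoepithelial markers summed to 1344, 446, 86.2, 63.2 and 108 CPM in that order, and OXTR of this list was at 0 in 4 of the 5 libraries. The 14 fibroblast markers summed to 10708, 12693, 10193, 28962 and 10520 CPM, most of it from COL1A1, COL1A2 and COL3A1, which smooth muscle also makes. DCN, a fibroblast proteoglycan, had 124, 186, 146, 433 and 124 CPM. PDGFRA, the fibroblast receptor, had 12.7, 12.8, 3.36, 16.6 and 0 CPM. The untreated graft at day 90 was highest in both. Skeletal muscle and Schwann cell markers other than NCAM1, DES and ACTG2 stayed below 20 CPM in each library.

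Against neighbouring mural cells, the gated cells were set beside RGS5 cells without MYH11 (at least 2 UMIs of RGS5, none of MYH11, at most 1 of VWF and PTPRC together and at most 1 of KRT5 and KRT14 together), a set chosen after the data were seen. It held 981, 683, 337, 436 and 64 cells in the inhibitor and untreated grafts at day 7, the same grafts at day 90 and unwounded skin. Because RNA of the same cells chose both sets, the differences are a description. Of 1991 genes compared, 106 were at least 1.5-fold higher and 52 at least 1.5-fold lower in the gated cells in each of the 5 libraries. Of the contractile list, 21 of 27 genes were higher in each library and none lower, and of the arterial list 9 of 11, the gate genes included in both. MYH11 is among the 21, and its direction was fixed in advance because the RGS5 cells had none of it.

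The genes standing highest against the RGS5 cells after ACTG2 were CNN1 (calponin, an inhibitor of myosin ATPase), LYNX1, ADIRF, SPARCL1, SORBS2, BCAM (a laminin receptor), FBXO32, RAMP1 (a subunit of the receptor for the vasodilator CGRP), MGLL, ANGPTL1 and NEXN. CNN1 had 552, 516, 371, 386 and 579.9 CPM in the gated cells, against 53.0, 27.0, 18, 21.3 and 9.37 CPM in the RGS5 cells of the same libraries (inhibitor and untreated at day 7, then at day 90, then unwounded). ACTG2 had 42.1 CPM or less in the RGS5 cells of each library. The genes standing lowest were HIGD1B, a pericyte marker, LPL (lipoprotein lipase), CD36 (a fatty acid transporter), SERPINE2, FSCN1, SRGN, MDK, SERPINF1, TNFRSF21, OLFML3, CLEC14A and POSTN. HIGD1B had 166, 137, 66.3, 72.3 and 46.9 CPM in the gated cells, against 496, 463, 354, 257 and 206 CPM in the RGS5 cells. RERGL was present in the RGS5 cells too, at 27.2, 20.7, 129, 83.8 and 262 CPM, and there as well the grafts at day 7 were lowest and unwounded skin was highest.

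**Figure D2:**
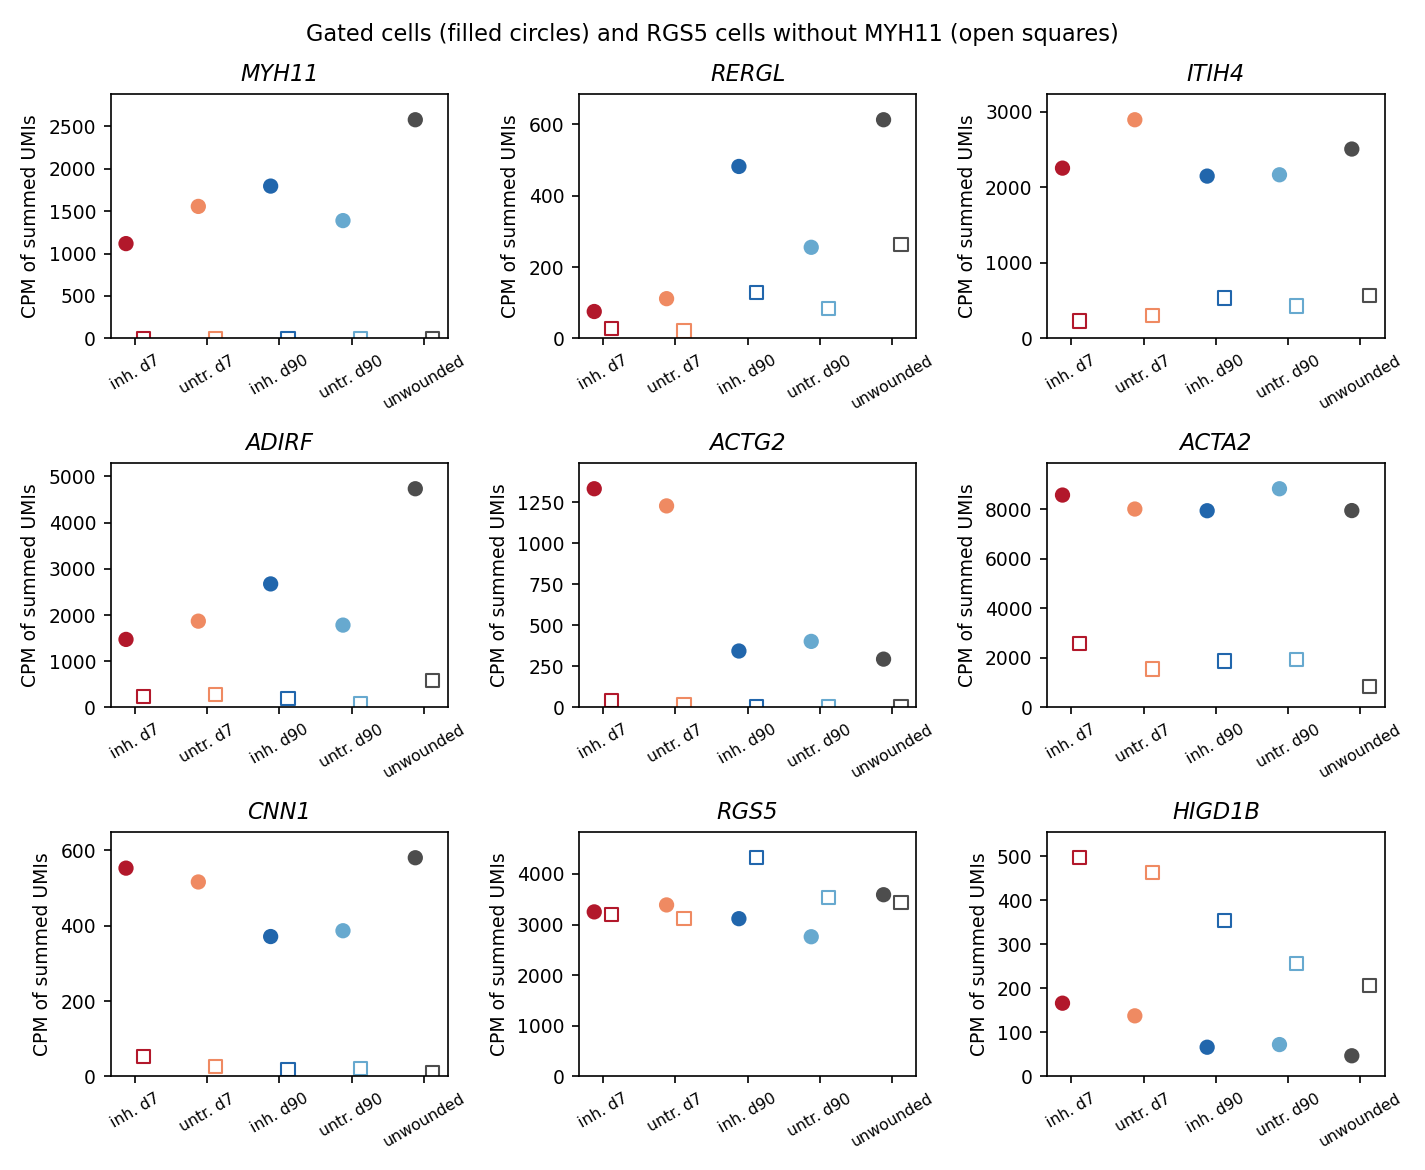
Levels of 9 genes in CPM of summed UMIs, for the gated cells (filled circles) and for RGS5 cells without MYH11 (open squares) of each library. ACTG2 is at 1333 CPM in the gated cells of the inhibitor graft at day 7 and at 294 CPM in unwounded skin, while RERGL is at 75.5 and 613 CPM.

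The planned set of other MYH11 cells, with no UMI of RERGL or ITIH4, had 286, 155 and 23 cells in the grafts with at least 20 such cells. Across these 3 libraries, 54 of 2084 genes were at least 1.5-fold higher and 8 lower in the gated cells, with 6 of 11 genes of the arterial list and 4 of 27 of the contractile list higher. RERGL and ITIH4 are among the 6, and the choice of the sets fixed their direction in advance. The gate gene MYH11 is among the 4. A planned pericyte set without RERGL and ITIH4 UMIs held 3230 to 15430 CPM of KRT14, the keratin of basal keratinocytes, and was not used for description.

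The gated cells with a RERGL UMI were set beside those without one. Of 1953 genes, 274 had a positive and 163 a negative log2 ratio in each of the 5 libraries. At least 1.5-fold higher in each of the 5 libraries were 5 genes, and 1 was lower. The 5 were RERGL, which made the division, HSPB8 (a small heat shock protein), DEPP1, TMEM51 and AP1AR. NET1, an exchange factor for RhoA, was higher in each library but under 1.5-fold in unwounded skin (log2 ratio 0.576). Unwounded skin had only 22 gated cells without a RERGL UMI. DES, the intermediate filament protein desmin, was the lower one, with log2 ratios of -0.84 and -0.75 at day 7 (inhibitor, untreated), -1.92 and -1.88 at day 90 and -3.93 in unwounded skin. The value in unwounded skin rests mostly on 1 cell, which held 125 of the 152 DES UMIs of the 22 cells. CCL19, a chemokine that attracts CCR7 cells and that mural cells of skin can make, had negative log2 ratios in each library, of -1.09, -0.21, -1.07, -0.39 and -0.90. ADIRF had positive ones, of 0.51, 0.74, 0.91, 1.0 and 0.44. RERGL itself divided these cells, and 1 UMI decides the division at this depth.

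Genes that varied most from cell to cell within a library, measured as the variance over that expected from counting, were HBB, JCHAIN, COL1A1, KRT14, KRT5, COL1A2, CCL19, CXCL10, COL3A1 and SFRP2. The ratio was 1442 for HBB and 256 for SFRP2, against a median of 1.39 over 2200 genes. Several of them rested on few cells. In the inhibitor graft at day 7, 1 cell held 98.7% of the UMIs of HBB (a haemoglobin chain), 1 held 96.7% of those of JCHAIN (made by plasma cells) and 1 held 29.7% of those of KRT14. In unwounded skin 1 cell held 66.6% of the COL1A1 and 93.6% of the DCN UMIs. CCL19 was spread more widely, with UMIs in 66.9% and 58.7% of gated cells at day 7 (inhibitor, untreated), 59.9% and 63.9% at day 90, and 33.3% in unwounded skin.

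**Figure D3:**
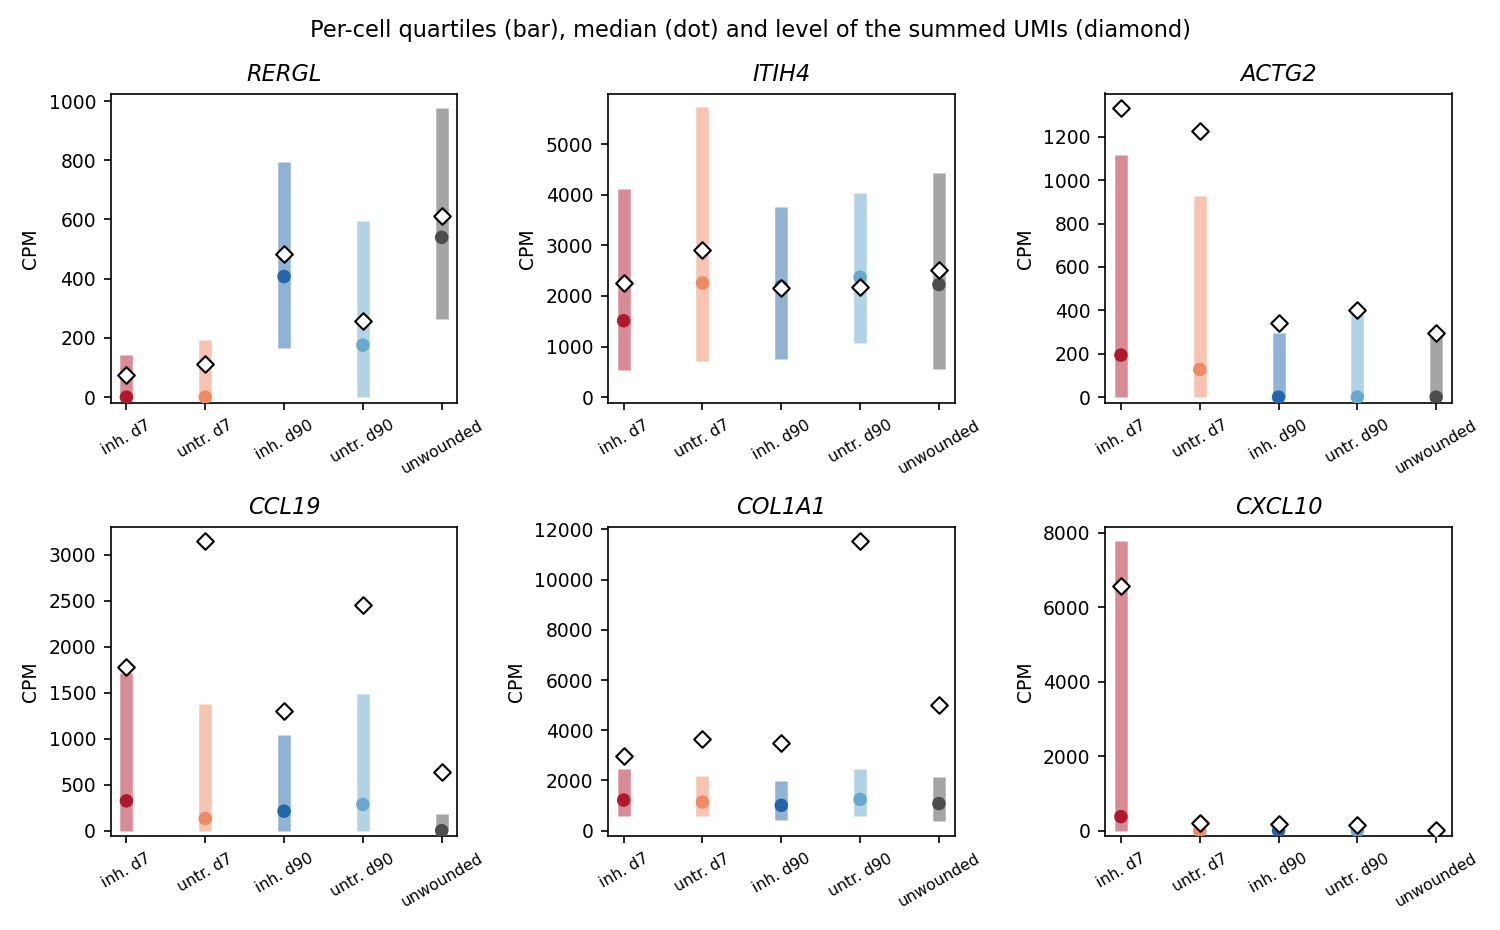
Spread over the gated cells of each library for 6 genes, in CPM per cell: bars run over the middle quartiles, dots are medians, and diamonds are the level of the summed UMIs. For COL1A1 the median is 1008 CPM in the inhibitor graft and 1244 CPM in the untreated graft at day 90, while the summed levels are 3501 and 11541 CPM.

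Each graft was compared with unwounded skin to see how far its smooth muscle stood from that of intact skin. A gene was tested when it reached 50 CPM in either library with at least 50 UMIs over both, and is called higher or lower at a ratio of at least 1.5 whose interval excludes 1. The 4 comparisons share the unwounded library of 201 gated cells, so their results are given side by side and are not independent. In the inhibitor graft at day 7, 24.2% of 2921 genes tested were higher and 27.5% lower, 51.7% in all. In the untreated graft at day 7, 20.5% of 2936 were higher and 20.2% lower, 40.7% in all. At day 90 the inhibitor graft had 3.0% of 2768 genes higher and 4.26% lower, 7.26% in all, and the untreated graft had 12.3% of 2884 higher and 10.8% lower, 23.2% in all. The median log2 ratio over all genes lay between -0.05 and 0.05 in the 4 comparisons.

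Genes of arterial smooth muscle were lower in the grafts at day 7. In the inhibitor graft 13 of 17 tested genes of the arterial list fell and 2 rose, with a median log2 ratio of -1.86, and in the untreated graft 12 fell and 2 rose (-1.34). At day 90, 6 fell and none rose in the inhibitor graft (-0.35), and 8 fell and 1 rose in the untreated graft (-0.51). RERGL chose the cells and is 1 of these genes, and among cells that each had a RERGL UMI the counts were 13, 11, 6 and 7 lower. Of all genes tested in those cells 49.5%, 36.8%, 6.90% and 17.4% were called, higher or lower, in the same order. SORBS2, which links actin to cell contacts, had 50.3 CPM in the inhibitor graft and 91.0 CPM in the untreated graft at day 7, 253 and 165 CPM in the corresponding grafts at day 90, and 464 CPM in unwounded skin. It was lower in each graft than in unwounded skin. NTRK3, the receptor of neurotrophin 3, had 1.65, 5.60, 28.3, 17.1 and 52.6 CPM in that order, and was 31.9-fold lower in the inhibitor graft at day 7 (log2 ratio -5.0, interval -5.88 to -4.20) and 9.41-fold lower in the untreated graft (log2 ratio -3.23, interval -3.87 to -2.63). NET1 had 204, 286, 884, 588 and 1207 CPM, and BCAM 211, 266, 460.2, 314 and 765 CPM. Against this direction ACTG2 rose at day 7, 4.53-fold higher in the inhibitor graft (log2 ratio 2.18, interval 2.04 to 2.32) and 4.17-fold higher in the untreated graft (log2 ratio 2.06, interval 1.92 to 2.21), and at day 90 it was not called in either graft, with log2 ratios of 0.22 and 0.45. MAP3K7CL was the other gene that rose at day 7.

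Notch pathway genes and other regulators of smooth muscle fell at day 7, 9 of 11 tested genes in the inhibitor graft (median log2 -1.28) and 6 of 11 in the untreated graft (-0.70), with none higher. At day 90, 2 fell in each graft, HES1 and KLF4, and HEY1 rose in the inhibitor graft. This list shares NOTCH3, JAG1, HEY2 and TBX2 with the arterial list. SRF, the serum response factor, and its cofactors MYOCD, MRTFA and MRTFB were on the list too and lay under the level needed for testing, SRF at 4.33, 3.95, 3.84, 4.15 and 2.88 CPM. HES1, a Notch target, had 129.9 CPM in the inhibitor graft and 172 CPM in the untreated graft at day 7, 412 and 273 CPM in the corresponding grafts at day 90, and 785 CPM in unwounded skin. KLF4, a zinc finger factor known to repress contractile genes in cultured smooth muscle, had 136, 186, 390.1, 326 and 624 CPM. NOTCH3 had 345, 444, 696, 597 and 663 CPM, and fell in the inhibitor graft at day 7 (log2 ratio -0.94, interval -1.05 to -0.83) while it was not called in the untreated graft (log2 ratio -0.58, interval -0.69 to -0.47). HES1 was also low at day 7 outside the gated cells, at 126 and 129.7 CPM in the remaining cells of those libraries, against 536 CPM in unwounded skin.

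The contractile list was divided. At day 7, 9 of 27 genes fell and 3 rose in the inhibitor graft, and 8 fell and 2 rose in the untreated graft, with medians of -0.07 and 0.01, near the median of all genes. At day 90, 2 fell and 1 rose in the inhibitor graft, and 6 fell and 2 rose in the untreated graft. LMOD1, a smooth muscle actin nucleator, had 73.4 CPM in the inhibitor graft and 85.9 CPM in the untreated graft at day 7, 209 and 164 CPM in the corresponding grafts at day 90, and 317 CPM in unwounded skin, the day 7 grafts lowest. PGM5 (a dense plaque protein) had 74.8, 110.1, 268, 149 and 325 CPM, in the same order of libraries. TPM4, a tropomyosin of non-muscle cells, ran the other way, with 3054, 2485, 1609, 2199 and 1004 CPM, and rose in each graft. TPM1, another tropomyosin, and CALD1 (caldesmon) were not called in these comparisons. TPM1 had 5022, 4587, 3777, 3983 and 4188 CPM and CALD1 2429, 2196, 2246, 2443 and 1917 CPM.

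Channels and receptors that set vessel tone were called in shares that in part lay near those of all genes. Of the calcium and ion channel list, 5 of 11 fell and 1 rose in the inhibitor graft at day 7, and 4 of 11 fell and 1 rose in the untreated graft. At day 90 it was 2 lower and 2 higher of 12 in the inhibitor graft, and 3 lower and 1 higher of 11 in the untreated graft. CACNA1H, a T-type calcium channel, had 15.2, 24.0, 50.9, 32.6 and 101 CPM (inhibitor and untreated at day 7, then at day 90, then unwounded). KCNAB1, a potassium channel subunit, had 15.8, 23.5, 57.9, 41.5 and 90.9 CPM, and CASQ2, which stores calcium in the sarcoplasmic reticulum, 16.7, 21.7, 56.7, 53.6 and 76.5 CPM. These 3 genes were highest in unwounded skin. Of the vasoactive receptor list, 6 of 13 fell and 1 rose in the inhibitor graft at day 7, 3 of 14 fell and 2 rose in the untreated graft, where 20.2% of all genes were lower, none of 13 was called in the inhibitor graft at day 90, and 4 of 13 fell in the untreated graft at day 90. EDNRB, an endothelin receptor, rose at day 7 and had 551 CPM in the inhibitor graft and 559.6 CPM in the untreated graft at day 7, 239 and 286 CPM in the corresponding grafts at day 90, and 242 CPM in unwounded skin. GUCY1A1, a subunit of the nitric oxide receptor, fell at day 7 and had 86.0, 113, 260.5, 186 and 257 CPM. EDNRA, the other endothelin receptor, had 143, 135, 167, 155 and 171 CPM and was not called.

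Part of the pericyte list rose in the grafts, 7 of 12 tested in the inhibitor and 7 of 13 in the untreated graft at day 7, and 5 of 11 and 8 of 13 at day 90, with 1, 1, 1 and 0 lower. KCNJ8, a subunit of the ATP-sensitive potassium channel of pericytes, had 87.8 CPM in the inhibitor graft and 96.5 CPM in the untreated graft at day 7, 60.7 and 91.5 CPM in the corresponding grafts at day 90, and 37.5 CPM in unwounded skin. FAM162B had 254, 242, 221, 172 and 88.0 CPM and HIGD1B 166, 137, 66.3, 72.3 and 46.9 CPM. CCL19 is on this list, with 1779 CPM in the inhibitor graft and 3145 CPM in the untreated graft at day 7, 1302 and 2452 CPM in the corresponding grafts at day 90, and 637 CPM in unwounded skin, so unwounded skin was lowest. RGS5 and PDGFRB, the genes shared by mural cells, were not called, PDGFRB standing at 342, 454, 457, 551 and 376 CPM.

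Many genes of wound matrix were higher in the day 7 grafts and the untreated day 90 graft. At day 7, 14 of 20 tested rose and 2 fell (COL1A1 and TIMP3) in the inhibitor graft, and in the untreated graft 16 of 22 rose and 1 fell. At day 90, 5 of 19 rose in the inhibitor graft, and 18 of 21 rose and 1 fell in the untreated graft. Median log2 ratios were 0.95, 0.96, 0.24 and 1.27 in that order. TIMP1, an inhibitor of matrix metalloproteinases, had 5416 CPM in the inhibitor graft and 4235 CPM in the untreated graft at day 7, 799 and 1810.3 CPM in the corresponding grafts at day 90, and 884 CPM in unwounded skin. COL12A1, a fibril-associated collagen, had 465, 504, 239.8, 519 and 190.4 CPM and FN1 (fibronectin) 1467, 1835, 1371, 1492 and 722 CPM. TIMP3, bound to matrix, fell in both day 7 grafts and in the untreated graft at day 90, with 155, 216, 504, 366 and 679 CPM. Of the fibroblast markers, 5 of 8 and 6 of 9 were higher at day 7 (inhibitor, untreated) and 4 of 8 and 10 of 10 at day 90, but COL1A1, COL1A2, COL3A1, MMP2 and COL6A3 are on both lists. Among those on the fibroblast list alone, LUM and CFD were higher in each graft. In cells with at most 2 UMIs of DCN and LUM and at most 1 of KRT5 and KRT14, 9 of 17 wound matrix genes were higher in the untreated graft at day 90 and 14 of 19 in the inhibitor graft at day 7. Of all genes tested in those cells 20.0% and 50.9% were called, higher or lower, in the same order. In unwounded skin 66.6% of the COL1A1 UMIs lay in 1 cell, and without the 10% of cells highest in it COL1A1 stood at 1541, 1394, 1182, 1577 and 1265 CPM.

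Basement membrane genes differed among themselves at day 7. COL4A1, a chain of type IV collagen, rose and had 2306 CPM in the inhibitor graft and 2491 CPM in the untreated graft at day 7, 1412 and 1799 CPM in the corresponding grafts at day 90, and 998 CPM in unwounded skin. LAMB2, the laminin chain of mature vessel walls, had 14.3, 22.6, 56.9, 41.5 and 113 CPM and was lower than unwounded skin in each graft. MFAP4, a microfibril protein, had 135, 164, 216, 221 and 622 CPM and was likewise lower in each graft. Over the vessel wall list, 6 of 20 genes rose and 8 fell in the inhibitor graft at day 7, 6 of 20 rose and 5 fell in the untreated graft, 0 of 18 rose and 3 fell in the inhibitor graft at day 90, and 5 of 19 rose and 3 fell in the untreated graft at day 90. Over all genes at day 7, 24.2% were higher and 27.5% lower in the inhibitor graft and 20.5% and 20.2% in the untreated graft.

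**Figure D4:**
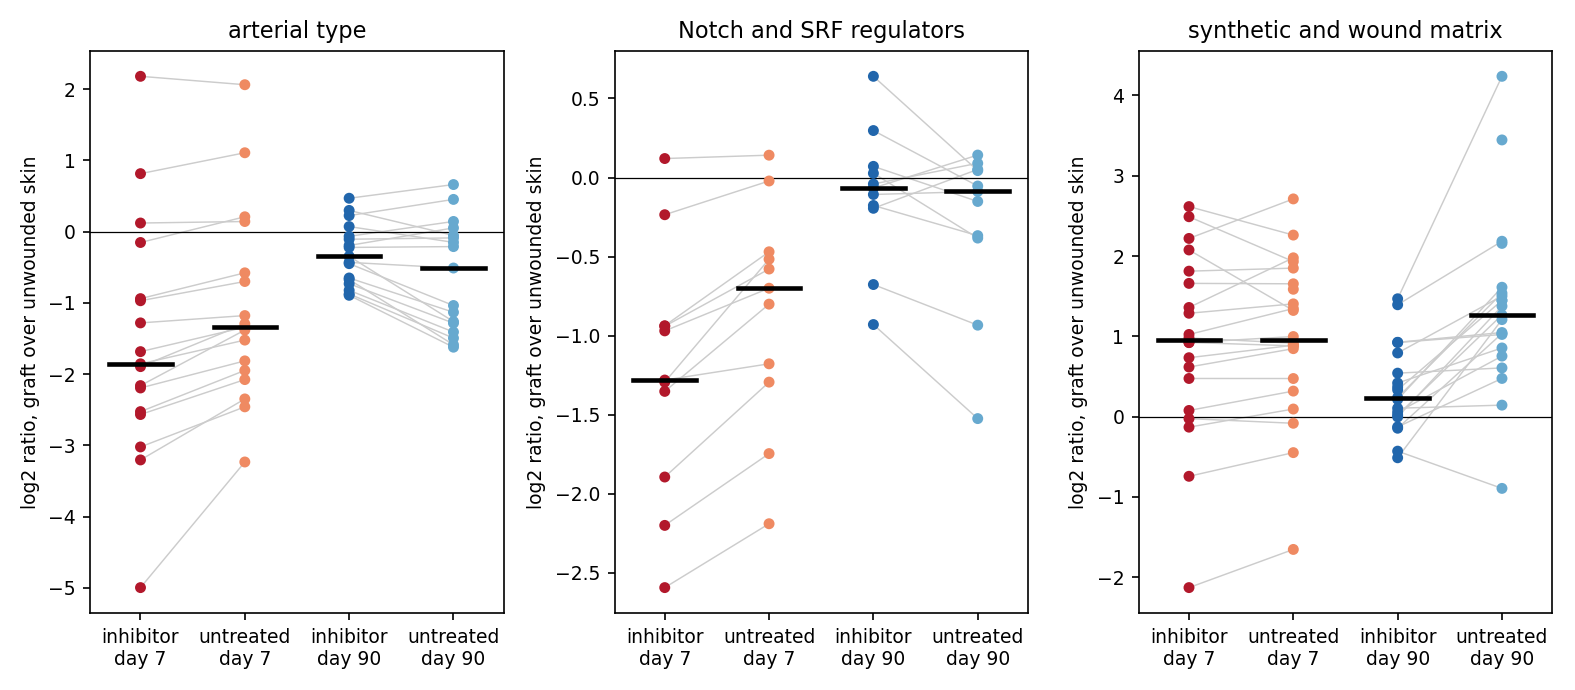
Log2 ratio of each graft over unwounded skin for the tested genes of 3 lists, with 1 point per gene and thin lines joining a gene between both treatments of the same day. Black bars are list medians, which for the arterial list are -1.86 and -1.34 at day 7 (inhibitor, untreated) and -0.35 and -0.51 at day 90.

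Immediate early transcription factors, which respond within minutes to stimuli, fell at day 7, 9 of 12 in the inhibitor graft and 9 of 13 in the untreated graft, where FOSL2 rose. At day 90 the counts were 3 of 12 lower in the inhibitor graft, and 4 of 12 lower and 1 higher in the untreated graft. FOS had 820.1 CPM in the inhibitor graft and 803 CPM in the untreated graft at day 7, 4004 and 3285 CPM in the corresponding grafts at day 90, and 4697 CPM in unwounded skin. EGR1 had 363, 322, 1119.7, 1085 and 2017 CPM, with the same order. The remaining cells of the libraries had 839, 639, 2619, 2144 and 3713 CPM of FOS, so the day 7 libraries were low outside the gate too.

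Interferon response genes rose in 19 of 21 cases tested in the inhibitor graft at day 7 with none lower, against 5 of 13 with 3 lower in the untreated graft, 6 of 14 with 1 lower in the inhibitor graft at day 90, and 6 of 13 with 2 lower in the untreated graft at day 90. The genes farthest from unwounded skin in the inhibitor graft at day 7 were the chemokines CXCL10 (268-fold higher) and CXCL14, the guanylate-binding proteins GBP1 (38.7-fold higher) and GBP2, and FAM111A (20.7-fold higher). Lower were NTRK3, TCAP (a sarcomere protein, 23.5-fold lower), ANGPT4 (an angiopoietin, 22.2-fold lower), IER5L (12.2-fold lower) and LSMEM1 (12-fold lower). In unwounded skin CXCL14 and GBP2 rested on 1 UMI each, so their ratios of 225 (interval 40.2 to 8874) and 79.6 (14.2 to 3150.0) are poorly bounded. In the untreated graft at day 7, FAM111A (17.8-fold higher) and PLAT (tissue plasminogen activator, 22.4-fold higher) rose with CXCL14, and KRT5 and KRT14 rose with them, while IER5L, NTRK3, ANGPT4, EGR1 and CRISPLD1 (7.04-fold lower) fell. ANGPT4 had 3.09 CPM in the inhibitor graft and 7.74 CPM in the untreated graft at day 7, 51.4 and 30.1 CPM in the corresponding grafts at day 90, and 68.5 CPM in unwounded skin.

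At day 90, FAM111A and RUNX1, a transcription factor of blood and stromal cells, stood above unwounded skin in both grafts. RUNX1 was 6.49-fold higher in the inhibitor graft (log2 ratio 2.70, interval 1.98 to 3.52) and 11.5-fold higher in the untreated graft (log2 ratio 3.52, interval 2.81 to 4.34), at 74.9 and 133 CPM, against 11.5 CPM in unwounded skin. The growth factor MDK rose in both, 3.28-fold higher in the inhibitor and 5.0-fold higher in the untreated graft, DUT and IFI6 rose in the inhibitor graft, and CCL19 (3.85-fold higher) and SLA-DQB1 (a class II histocompatibility gene, 5.32-fold higher) rose in the untreated graft. EEF1A2, a translation elongation factor, and SBSPON fell in both grafts, EEF1A2 standing at 51.4 and 33.4 CPM, against 154 CPM in unwounded skin. MFAP4, NDUFB1 and TCAP were the other leading genes lower in the inhibitor graft, and PLCB1, HES1 and ADIRF in the untreated graft.

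Day 90 was compared with day 7 within each treatment. In the inhibitor grafts 23.0% of 2845 genes were higher at day 90 and 19.1% lower, 42.0% in all, and in the untreated grafts 10.7% of 2833 were higher and 8.05% lower, 18.8% in all. Of the arterial list 11 of 15 genes rose and 1, ACTG2, fell in the inhibitor grafts (median log2 1.17), and 7 of 14 rose and ACTG2 fell in the untreated grafts (0.54). RERGL is among the genes that rose in both treatments. It is a gate gene, so its ratios are not independent of how the cells were chosen. RERGL was 6.39-fold higher in the inhibitor grafts (log2 ratio 2.68, interval 2.55 to 2.80) and 2.29-fold higher in the untreated grafts (log2 ratio 1.20, interval 1.05 to 1.34). ACTG2 was 3.88-fold lower (log2 ratio -1.95, interval -2.03 to -1.88) and 3.05-fold lower (log2 ratio -1.61, interval -1.69 to -1.53). Of the Notch list 9 of 10 rose in the inhibitor and 7 of 10 in the untreated grafts, with none lower, and of the immediate early genes 9 of 11 and 9 of 12 rose. Of the interferon list 17 of 22 fell and 1 rose in the inhibitor grafts, while 1 of 13 fell and 3 rose in the untreated grafts. The other genes with the farthest bounds in the inhibitor grafts were ANGPT4 (16.6-fold higher), LSMEM1 (12.5-fold higher), IER5L and CRISPLD1, higher at day 90, and CXCL10 (37.4-fold lower), PTGES (prostaglandin E synthase, 35.7-fold lower), GBP1, CXCL14 and TIMP1 (6.78-fold lower), lower. In the untreated grafts they included FOS (4.09-fold higher), NAALAD2, IER5L, EGR1 and COL1A1 (3.15-fold higher), higher, and KRT14, KRT5, CYP26B1 (which degrades retinoic acid, 5.89-fold lower) and HAS1 (a hyaluronan synthase, 4.19-fold lower), lower. KRT14 stood at 0.518 CPM at day 90, against 179.9 CPM at day 7 in the untreated grafts, and 1 cell held 43.3% of the day 7 UMIs. The 10% of cells highest in COL1A1 held 90.2% of its UMIs in the untreated graft at day 90 and 71.2% at day 7. Without them COL1A1 stood at 1577 and 1394 CPM, so its rise rested mostly on few cells.

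The inhibitor was set against no treatment at day 7, where 2.68% of 2571 genes were higher and 4.47% lower in the inhibitor graft, 7.16% in all. Interferon response genes rose, 19 of 21 tested, with none lower and a median log2 ratio of 1.76, against -0.03 for all genes. CXCL10, a chemokine for CXCR3 lymphocytes, had 6572 CPM in the inhibitor graft, against 211 CPM in the untreated graft, and was 31.2-fold higher (log2 ratio 4.96, interval 4.88 to 5.04). It was found in 62.7% of gated cells of the inhibitor graft, with a median of 377 CPM per cell, and in 12.1% of those of the untreated graft. Its levels were 176 and 163 CPM at day 90 (inhibitor, untreated) and 24.5 CPM in unwounded skin, so the inhibitor graft at day 7 stood alone. CXCL9 had 901, 102, 154, 75.4 and 0 CPM (inhibitor and untreated at day 7, then at day 90, then unwounded). GBP1 had 307 CPM in the inhibitor graft and 15.0 CPM in the untreated graft (20.5-fold higher), and GBP2 57.4 and 2.80 CPM (20.5-fold higher).

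The proteasome subunit PSMB9 was 4.77-fold higher and the peptide transporter TAP1 3.73-fold higher, both parts of antigen presentation. The transcription factors IRF7 (4.77-fold higher) and IRF1 (3.38-fold higher), the ubiquitin-like conjugating enzyme UBE2L6 (4.06-fold higher), the tryptophan tRNA synthetase WARS (3.90-fold higher) and the antiviral OAS2 (3.82-fold higher) rose as well. IRF1 had 752 CPM in the inhibitor graft and 223 CPM in the untreated graft at day 7, 669.6 and 388 CPM in the corresponding grafts at day 90, and 1046 CPM in unwounded skin. Unlike CXCL10, IRF1 was highest in unwounded skin and lowest in the untreated graft at day 7. Cells outside the gate had CXCL10 as well, at 4050.3 CPM in the inhibitor graft and 311 CPM in the untreated graft at day 7, and the RGS5 cells had 6708 and 328 CPM, so the difference was present in other cells of these libraries too.

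The contractile list held no called gene at day 7, 0 of 27 genes tested passing, and the median log2 ratio was 0.03. MYH11 and RERGL were not called (log2 ratio -0.48, interval -0.52 to -0.44, and log2 ratio -0.56, interval -0.72 to -0.41). In cells that each had a RERGL UMI, 6 of 27 contractile genes were lower. Of 2651 genes tested in those cells 11.2% were called, higher or lower, and 35.9% of the calls were higher. Over all gated cells 1 of 11 genes of the arterial list fell, SORBS2 (log2 ratio -0.86, interval -1.03 to -0.68). Focal adhesion and mechanical response genes were not called, 0 of 21, and PTK2, the target of the inhibitor, had 105 CPM in the inhibitor graft and 112 CPM in the untreated graft at day 7, 163 and 137 CPM in the corresponding grafts at day 90, and 147 CPM in unwounded skin. The inhibitor acts on the kinase, so the PTK2 level does not check the treatment.

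Lower in the inhibitor graft at day 7 were MGP, an inhibitor of vessel calcification (2.05-fold lower), and DENND2C (2.35-fold lower). GJA4 (connexin 37, 1.98-fold lower), HAS1 (2.21-fold lower), IFRD1 (2.06-fold lower), LRRC10B, NIBAN1 and CNOT9 fell as well, as did the stress genes GADD45A (2.05-fold lower) and GADD45B (1.93-fold lower). MGP had 1568 CPM in the inhibitor graft and 3219 CPM in the untreated graft at day 7, 3070.1 and 3664 CPM in the corresponding grafts at day 90, and 4032 CPM in unwounded skin, so the inhibitor graft at day 7 was the lowest library. Of the chemokine list 4 of 16 rose (CCL2, CCL5, CCL8 and PTGS2) and 3 fell (CCL19, CXCL12 and VCAM1). CCL2, which draws monocytes, had 7004 CPM in the inhibitor graft and 4317 CPM in the untreated graft (log2 ratio 0.70, interval 0.68 to 0.72). CCL19 had 1779 and 3145 CPM (log2 ratio -0.82, interval -0.85 to -0.79), and 1 cell held 16.4% of its UMIs in the untreated graft. Per cell CCL19 went the other way, with UMIs in 66.9% of gated cells of the inhibitor graft and 58.7% of the untreated graft. Its medians were 324 and 132 CPM per cell, so the lower summed level rested on cells with high CCL19 in the untreated graft. Of the immediate early genes 5 of 12 fell, KLF2 standing at 198 CPM in the inhibitor graft and 372 CPM in the untreated graft. KRT5, KRT14 and PERP rose in summed UMIs, with a single cell holding 29.7% of the KRT14 UMIs in the inhibitor graft. KRT14 was found in 16.1% of gated cells of the inhibitor graft, against 30.1% of those of the untreated graft. KRT5 was found in 12.9% and 23.1%. The rise of KRT14 and KRT5 thus rested on few cells, and the share of cells with a UMI went the other way.

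At day 90, 3.46% of 2802 genes were higher and 5.57% lower in the inhibitor graft than in the untreated graft, 9.03% in all. Wound matrix genes fell, 15 of 22 with none higher (median log2 -0.95, against -0.02 for all genes). COL1A1, the main chain of type I collagen, had 3501 CPM in the inhibitor graft, against 11541 CPM in the untreated graft (log2 ratio -1.72, interval -1.75 to -1.69). COL3A1 had 2357 and 6211 CPM (log2 ratio -1.40, interval -1.43 to -1.36), COL1A2 3461 and 8519.9 CPM, and THBS1, a matricellular protein that activates TGF-beta, 187 and 487 CPM (log2 ratio -1.38, interval -1.5 to -1.26). Few cells carried most of this. The 10% of cells highest in COL1A1 held 73.3% of its UMIs in the inhibitor graft and 90.2% in the untreated graft, and without them the levels were 1182 and 1577 CPM. Fibroblast markers fell as well, 10 of 10, of which COL1A1, COL1A2, COL3A1, MMP2 and COL6A3 are also on the wound matrix list and DCN, LUM, PI16, CFD and SFRP2 are not. DCN stood at 146 and 433 CPM. In cells with at most 2 UMIs of DCN and LUM and at most 1 of KRT5 and KRT14, 4 of 17 wound matrix genes were lower and the log2 ratio of COL1A1 was -0.46, which is not called. Of all genes tested in those cells 6.13% were called, higher or lower. With the top-scoring doublets removed 8 of 20 wound matrix genes were lower, 1 was higher, and the COL1A1 ratio was -0.72. Over all genes 6.73% were then called.

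WFDC1, a secreted protein of the whey acidic protein family, fell to 265 CPM in the inhibitor graft, against 701 CPM in the untreated graft (log2 ratio -1.40, interval -1.51 to -1.30), and was at -1.49 in the cells with few fibroblast and keratin UMIs. PLPP1 (2.77-fold lower), ANGPTL2 (2.94-fold lower), PCP4L1 (2.89-fold lower), ADAMTS2 (the procollagen I peptidase, 2.83-fold lower) and LAMB1 (2.90-fold lower) fell as well. Of the pericyte list 5 of 13 fell and none rose, namely KCNJ8, CSPG4, CD248, CA4 and CCL19. CCL19 had 1302 CPM in the inhibitor graft and 2452 CPM in the untreated graft (log2 ratio -0.91, interval -0.96 to -0.86), where 1 cell held 16.4% of the UMIs.

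Higher in the inhibitor graft at day 90 were RERGL (1.89-fold higher, log2 ratio 0.92, interval 0.81 to 1.03) and ADIRF (1.5-fold higher, log2 ratio 0.59, interval 0.54 to 0.63), with SORBS2 and NET1 the 4 of 15 genes of the arterial list that rose and none that fell. Among cells that each had a RERGL UMI none of the 15 was called, and the log2 ratio was 0.34 for RERGL and for ADIRF. With the top-scoring doublets removed 1 of 15 rose, and with cells thinned to 4000 UMIs 2 rose and 2 fell. Over all genes the share called, higher or lower, was 5.91% among the RERGL cells, 6.73% without the doublets and 8.14% after thinning. PTGER4, a prostaglandin E2 receptor, was 1.91-fold higher, and CACNA1H, HEY1 and HES1 rose, HES1 standing at 412 CPM in the inhibitor graft and 273 CPM in the untreated graft. Other genes with the farthest bounds included ISG15 (2.08-fold higher), CXCR4 (2.22-fold higher), GADD45A (1.73-fold higher), LSMEM1, ID4, PGM5 and PLCB1 (a phospholipase, 2.03-fold higher). PGM5 was the 1 of 27 contractile genes called, at 268 CPM in the inhibitor graft and 149 CPM in the untreated graft. Of the interferon list 4 of 15 rose (ISG15, MX1, IRF1 and CXCL9), and CXCL10 was not called, with 176 and 163 CPM.

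**Figure D5:**
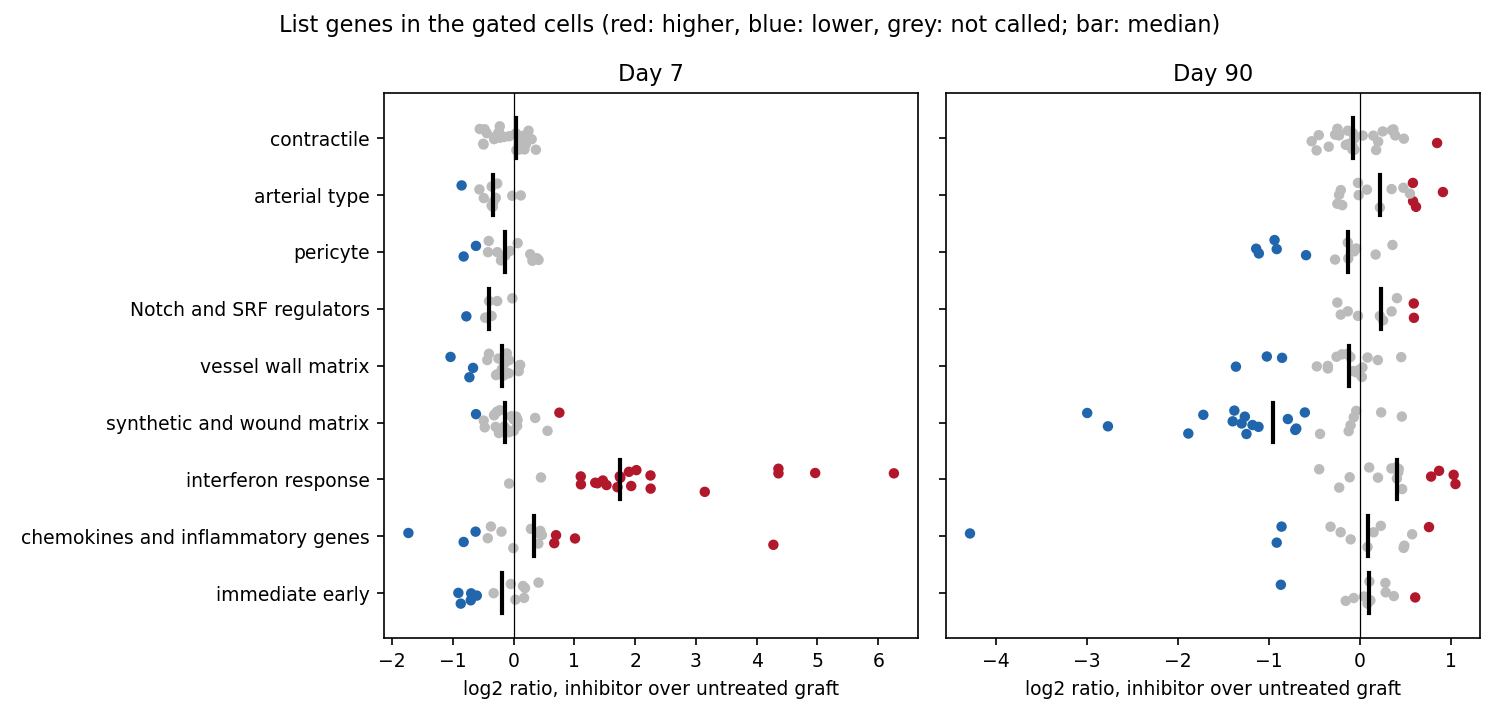
Log2 ratio of the inhibitor graft over the untreated graft in the gated cells for the tested genes of 9 lists at day 7 (left) and day 90 (right). Each point is a gene, red for higher, blue for lower and grey for not called, and black bars are list medians. The interferon list stands at 1.76 at day 7 and the wound matrix list at -0.95 at day 90, while contractile genes lie around 0.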

How the data were processed

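Single-cell RNA was captured with 10x Genomics 3′ v3 chemistry, per the labels. The values used are deposited UMI counts, 1 for each gene and barcode. The submitters' processing notes name Cell Ranger for this step. Its version and the genome build are not given in the sources used here. Seurat 3.1.1 is on the same notes, and the matrix headers name software 3.1.0. Of 20286 gene IDs, 15351 had a symbol, 677 of them from a RefSeq gene table, and 18 ambiguous IDs were left out.

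UMIs of the gated cells were summed per library and divided by their total per 1000000 (CPM). The tools were Scanpy 1.11.5, SciPy 1.17.1, Matplotlib 3.10.9, NumPy 2.4.6 and pandas 2.3.3 in Python 3.11.15. Libraries held 18485301 to 79671374 UMIs, and the gated cells 1386522 to 9701048. Ratios have exact conditional binomial intervals, shares exact binomial ones and levels exact Poisson ones, all at 95% and for counting error only. Cells are not replicates. Genes needed 50 CPM in either library and 50 UMIs over both, and a symbol, and mitochondrial genes were left out. A ratio against a library at 0 was set at the floor of 3 counts. The ratio and call steps were run on simulated counts with counting error only and no variation between cells. That run therefore does not check the intervals of genes that vary from cell to cell.

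The members and the 21 gene lists were chosen with earlier results of these data known. Of 409 list entries, 374 were measured. Named genes are the markers, list members and, for treatment, the 10 higher and 10 lower genes with the interval bound farthest from no change (5 for other comparisons), with UMIs in at least 20% of the gated cells of the higher library and without ribosomal protein genes. A few genes that this rule names are not reported here. Scrublet's own threshold called 0, 0, 3, 83 and 3 cells, under 0.5% in most libraries, so its top-scoring cells were removed only as an alternative. The planned pericyte set held keratinocyte RNA and was replaced. Other alternatives were stricter gates, thinning to 4000 UMIs, a mitochondrial limit of 25%, per-cell means, median-of-ratios scaling and other low-value filters.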

Additional observations from a re-analysis of the deposited data

Results flagged for a closer look

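For 6 genes the inhibitor graft stood lower than the untreated graft at day 7 and higher at day 90. They were 6 of the 213 list or named genes tested at both days, and 19 of all 2339 genes tested at both days had opposite calls. The named genes were chosen for the farthest bounds in these same comparisons, so the counts cannot be set against each other. With 1 library per group the difference between the days was not tested. The chemokine CXCL12 had log2 ratios of -1.73 at day 7 and 0.76 at day 90. The stress genes GADD45A and GADD45B had log2 ratios of -1.04 and -0.95 at day 7, and of 0.79 and 0.73 at day 90. SORBS2, an actin adaptor, had log2 ratios of -0.86 at day 7 and 0.62 at day 90. It is on the arterial list, of which no gene was called at day 90 among cells that each had a RERGL UMI. MYC had log2 ratios of -0.70 at day 7 and 0.61 at day 90, and the small heat shock protein gene HSPB8 had -0.65 and 0.62.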

How the results depend on the processing

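No paired analysis was possible because each group is 1 library. Cells with a RERGL UMI, and cells low in fibroblast and keratin UMIs, were alternatives chosen after seeing the data. The share of gated cells in the inhibitor and untreated grafts was 7.68% and 6.42% at day 7 and 12.9% and 6.75% at day 90 under the stricter gate. Counting only gated cells with a RERGL UMI, it was 3.49%, 3.46%, 12.5% and 5.05% of all cells in the same order. At day 7 it was 8.09% and 5.85% without UMIs of other cell types, and 8.32% and 6.19% with few fibroblast and keratin UMIs. With thinning it was 13.5% and 6.18% at day 90.

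Called genes for treatment numbered 184 at day 7 and 253 at day 90. They were 298 and 166 among cells with a RERGL UMI, and 167 at day 90 from per-cell means. Without a CPM minimum they were 1246 and 1048, and with 100 CPM 103 and 132, as more or fewer genes were tested. Against unwounded skin the calls without a minimum were 4223 and 3379 at day 7 (inhibitor, untreated) and 874 and 1801 at day 90, and with 100 CPM 826, 635, 93 and 348. For day 90 over day 7 they were 4375 in the inhibitor and 2378 in the untreated grafts without a minimum, and 683 and 285 with 100 CPM. Without a minimum the share of calls that were higher was 23.4% against 37.5% for treatment at day 7, 35.0% against 46.9% for the inhibitor graft at day 7 over unwounded skin, and 68.8% against 54.7% and 69.9% against 57.1% for day 90 over day 7 (inhibitor, untreated). The median of all genes was then -0.14, -0.22, 0.26 and 0.14. From per-cell means the treatment share at day 90 was 25.7% against 38.3%. Against RGS5 cells, 85 genes were lower in each library after thinning. Against other MYH11 cells, 86 were higher and 44 lower without UMIs of other cell types, and 97 and 59 after thinning, in 2 libraries.

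Interferon genes at day 7 kept their direction under each alternative run, and COL1A1 at day 90 lost its call in cells low in fibroblast and keratin UMIs. The causes were not tested. Of 1507 alternative values for the 137 named results of genes, 254 under planned and 127 under added alternatives moved and none reversed. Values under another CPM minimum are among the 1507 and could not move, because that minimum leaves a ratio unchanged. Apart from the markers, these genes were chosen for interval bounds far from no change, which makes a reversal less likely. Over all genes, up to 8 of the 184 treatment calls at day 7 had the other sign, in cells without UMIs of other cell types. Unwounded skin had 201 gated cells, which limits low genes.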
